A study of Mus musculus with 8 samples.

Results

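Immediate early genes were followed in epithelial cells sorted from mouse lung. The set holds 10 genes: Fos, Fosb, Jun, Junb, Jund, Atf3, Egr1, Klf6, Ier2 and Zfp36. They were chosen by name as well-known members of this class, though with earlier results of these data known. All 10 were among the 25124 genes of the table, and all 10 were among the 7512 genes tested, those averaging 10 or more normalized counts. Normalized counts are the authors' read counts divided by 1 factor per library. Log2 differences are on the log2(normalized count + 1) scale with the limma standard error after ±, and a gene passed when its limma p, adjusted over all genes tested, was under 0.05. The cells came from C57BL/6 mice labelled STAT3-WT (WT) or STAT3-cKO (cKO, a conditional knockout), and each genotype had been given house dust mite (HDM), an allergen, or PBS, the saline control. Each of the 4 groups (WT PBS, WT HDM, cKO PBS and cKO HDM) had 2 libraries. Not given in the sources used here are the age, the driver of the knockout, the dosing schedule, and the time and enzymes used to free the cells from tissue. Every library was made from sorted cells, and no library of undissociated lung was analysed here. A level set by dissociation and sorting in all groups alike therefore cannot be told apart from the level in the living tissue.

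Immediate early genes are switched on within minutes of a stimulus, without new protein synthesis, by factors that are already present in the cell. Growth factors, cytokines, stretch and stress reach them through the MAP kinases, which act on serum response factor with its ELK partners and on CREB. FOS and JUN proteins pair as the AP-1 transcription factor. The same genes are known to be induced when solid tissues are digested into single cells, often together with heat shock genes.

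The 8 libraries held 232556 to 593200 reads. The labels do not say whether libraries of 1 group stem from different mice, and every p-value therefore rests on a spread that may be purely technical. The correlation of a replicate pair over genes was 0.56 for cKO PBS and 0.68 to 0.77 for the other pairs. Stat3, the targeted gene, had 75.8 and 40.9 normalized counts in WT PBS, 134 and 157 in WT HDM, 56.9 and 96.5 in cKO PBS, and 76.9 and 92.2 in cKO HDM. Under HDM both cKO libraries lay below both WT libraries, as for 21.9% of all genes tested. The difference was -0.78 ± 0.39 log2 units (limma unadjusted p = 0.065, adjusted p = 0.549). Under PBS the genotypes overlapped, at 0.41 ± 0.39 (limma adjusted p = 0.845). The responses to HDM differed, cKO minus WT, by -1.18 ± 0.55 (limma unadjusted p = 0.0488, adjusted p = 0.638). Stat3 thus did not pass as lower in the libraries labelled cKO, and genotypes are given as labelled. The 5 epithelial markers summed to 1061 and 1213 normalized counts in the WT HDM libraries and to 1282 to 1487 in the other groups. Markers of several cell types, both epithelial (alveolar type 2) and other, were highest in the WT HDM libraries. The 10 endothelial markers summed to 981 to 1037 normalized counts there and to 199.6 to 343 in the other groups. The 9 fibroblast and smooth muscle markers summed to 1284 to 1414 there and 48.8 to 117 elsewhere. The 9 alveolar type 2 markers summed to 10106 to 14426 there and 4159 to 5923 elsewhere, and 3 leukocyte markers to 39.8 to 143 there and 1.53 to 13.0 elsewhere. The 8 lymphocyte markers summed to 14.999 and 16.8 normalized counts in the WT HDM libraries and to 0 to 0.726 elsewhere, and the 7 granulocyte markers to 21.5 and 101 against 0 to 17.9. The 5 erythroid markers summed to 211 and 398 in the WT HDM libraries and to 3.32 to 30.5 elsewhere. Of these lists Cd3d, Cd8a, Epx, Prg2 and Ly6g had 0 reads in every library. In bulk libraries, fewer cells that express a gene and less RNA per cell cannot be told apart.

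The promoters of members are shown because the members are classic targets of a few shared factors. RefSeq (GRCm38.p6) held a promoter for 8 of the 10 genes; Egr1 and Ier2 had no entry. The 250 bases before the start were searched on both strands for the CRE core TGACGT (read by CREB and ATF proteins), the AP-1 site TGANTCA, the EGR site GCGNGGGCG, the GAS site TTCNNNGAA (read by STAT proteins) and the CArG box (read by serum response factor). The 4 members with a match are printed 5′ to 3′ with the matches in capitals, and no marked match overlaps another. They are Fos (chr12:85473640-85473889, plus strand), Fosb (chr7:19310046-19310295, minus strand), Atf3 (chr1:191183334-191183583, minus strand) and Zfp36 (chr7:28379229-28379478, minus strand).
Fos: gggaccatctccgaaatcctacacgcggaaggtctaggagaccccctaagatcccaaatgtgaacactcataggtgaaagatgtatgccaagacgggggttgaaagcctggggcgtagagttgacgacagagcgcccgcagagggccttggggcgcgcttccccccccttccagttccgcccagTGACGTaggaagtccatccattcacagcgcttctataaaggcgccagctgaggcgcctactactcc
Fosb: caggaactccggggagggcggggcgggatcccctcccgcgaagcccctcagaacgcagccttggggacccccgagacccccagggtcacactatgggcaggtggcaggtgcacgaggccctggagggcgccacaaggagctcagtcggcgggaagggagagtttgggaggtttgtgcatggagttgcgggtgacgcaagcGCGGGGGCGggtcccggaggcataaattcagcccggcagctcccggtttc
Atf3: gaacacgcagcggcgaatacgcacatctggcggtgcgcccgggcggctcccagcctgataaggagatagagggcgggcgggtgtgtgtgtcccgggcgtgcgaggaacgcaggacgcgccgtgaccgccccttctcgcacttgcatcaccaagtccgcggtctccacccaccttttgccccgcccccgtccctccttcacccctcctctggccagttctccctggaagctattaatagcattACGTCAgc
Zfp36: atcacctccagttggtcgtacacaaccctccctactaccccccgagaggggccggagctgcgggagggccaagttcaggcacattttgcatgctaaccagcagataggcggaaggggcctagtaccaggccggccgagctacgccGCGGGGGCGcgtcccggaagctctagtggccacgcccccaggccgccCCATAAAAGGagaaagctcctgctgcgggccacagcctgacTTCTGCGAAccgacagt
Fos held the CRE core at -66 to -61 from the start and Atf3 held it, on the other strand, at -8 to -3, a motif found in 6.47% of the 32851 windows of this length. Fosb held an EGR site at -50 to -42 and Zfp36 one at -105 to -97, against 4.70% of windows. Zfp36 also held a CArG box at -58 to -49 (1.47% of windows) and a GAS site at -17 to -9 (7.02% of windows). Jun, Junb, Jund and Klf6 held none of these letters in their windows, and the AP-1 letters, which 6.75% of windows hold, were in none of the 8. Longer or variant forms of these sites, which the letters cannot match, were not searched. The RefSeq window of Jund lies 1210 bases from the nearest GENCODE start of that gene, and those of Atf3 and Zfp36 lie before starts inside the annotated span of the gene. A match describes letters and does not show that a factor was bound in these cells.

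Of the 10 members, 8 were among the more abundant transcripts of these cells. Per 1000 bases of exon, mean levels over the 8 libraries ran from 147 normalized counts for Fos through 123 for Jund, 92.9 for Ier2, 78.2 for Junb, 56.8 for Jun, 49.998 for Egr1, 39.9 for Zfp36 and 34.8 for Klf6 to 12.1 for Atf3 and 3.04 for Fosb. Without regard to length, the mean of Fos was above that of 99.0% of the genes tested, that of Atf3 above 49.3% and that of Fosb above 32.2%. Of all reads the 10 genes together made up 0.570% and 0.454% in WT PBS, 0.385% and 0.408% in WT HDM, 0.420% and 0.514% in cKO PBS, and 0.354% and 0.293% in cKO HDM. As a percent of reads, all 4 HDM libraries thus lay below all 4 PBS libraries. By summed normalized counts they overlapped, with 1671 in the second WT HDM library and 1588 in the first cKO PBS library. The exact 95% intervals of the 2 nearest libraries overlapped (0.386 to 0.431% in the second WT HDM library and 0.394 to 0.447% in the first cKO PBS library), and they cover counting error only.

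**Figure D1:**
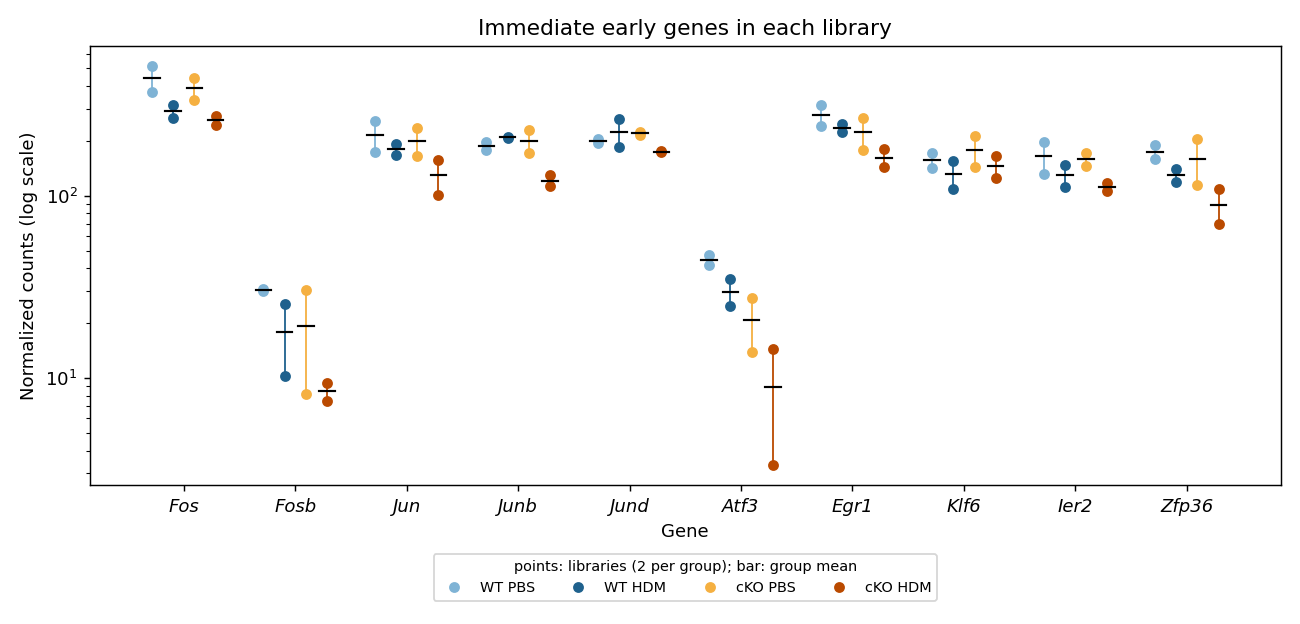
Normalized counts (log axis) of the 10 immediate early genes in each of the 8 libraries, with points for libraries, thin lines joining the 2 libraries of a group, and bars for group means. Fos is the highest and Fosb and Atf3 are the lowest, and the cKO HDM mean is the lowest of the 4 for every gene but Klf6. The share of all genes with cKO HDM lowest was not computed.

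Fos, on chromosome 12 (85473890 to 85477273, plus strand, mm10), encodes the AP-1 subunit that is the standard marker of recent stimulation. It had 516 and 372 normalized counts in WT PBS, 268 and 313 in WT HDM, 335 and 441 in cKO PBS, and 273 and 246 in cKO HDM. The HDM libraries of both genotypes ran from 246 to 313 and the PBS libraries from 335 to 516, with no overlap. HDM against PBS, Fos stood at -0.59 ± 0.25 log2 units in WT (a ratio of 0.662) and at -0.57 ± 0.25 in cKO (0.675), each with an unadjusted limma p under the threshold (0.031 and 0.0383) and neither past it after adjustment (limma adjusted p = 0.497 and 0.591). Without the first WT PBS library the WT value was -0.36, and without the second cKO PBS library the cKO value was -0.37. Averaged over genotypes it stood at -0.58 ± 0.18 (limma unadjusted p = 0.00494, adjusted p = 0.309). The same average had an adjusted p of 0.22 with edgeR and 0.0767 with DESeq2. The responses of the genotypes differed by 0.03 ± 0.35, with a 95% interval of -0.73 to 0.78.

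Fosb, the other FOS subunit in the set, lies on chromosome 7 (19302696 to 19310051, minus strand). It had 29.9 and 30.9 normalized counts in WT PBS, 25.4 and 10.3 in WT HDM, 8.13 and 30.5 in cKO PBS, and 9.43 and 7.48 in cKO HDM. These values rest on 5 to 39 reads. Both WT PBS libraries were high and both cKO HDM libraries low, while the 2 libraries of WT HDM and of cKO PBS lay far apart. HDM against PBS, it stood at -0.86 ± 0.81 log2 units in WT and -0.85 ± 0.81 in cKO, with intervals from -2.58 to 0.86 and from -2.57 to 0.87. The WT value was -0.25 without the second WT HDM library and -1.47 without the first, and the cKO value was 0.042 without the second cKO PBS library and -1.74 without the first.

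Jun, the main partner of FOS, lies on chromosome 4 (95049034 to 95052222, minus strand) and overlaps the antisense gene Junos. It had 256 and 175 normalized counts in WT PBS, 168 and 192 in WT HDM, 164 and 235 in cKO PBS, and 157 and 101 in cKO HDM. The libraries of cKO HDM lay below all others, and those of WT HDM overlapped those of WT PBS. HDM against PBS, Jun stood at -0.23 ± 0.31 log2 units in WT and -0.63 ± 0.31 in cKO (limma adjusted p = 0.909 and 0.648). The cKO value went to -0.32 when the second cKO HDM library was left out and to -0.95 when the first was, and the WT value was 0.042 without the first WT PBS library.

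Junb, a JUN protein that often restrains AP-1 activity and a known transcriptional target of STAT3, lies on chromosome 8 (84974484 to 84978718, minus strand) and overlaps Prdx2 on the opposite strand. It had 197 and 178 normalized counts in WT PBS, 209 and 211 in WT HDM, 229 and 171 in cKO PBS, and 112 and 130 in cKO HDM. The cKO HDM libraries stood apart below the other 6, which ran from 171 to 229. Under HDM the difference of cKO against WT was -0.79 ± 0.27 log2 units, a ratio of 0.577 with a 95% interval of 0.386 to 0.861 (limma unadjusted p = 0.0103, adjusted p = 0.317). HDM against PBS in cKO was -0.71 ± 0.27 (limma adjusted p = 0.537), and in WT it was 0.16 ± 0.27 (limma adjusted p = 0.926).

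Jund, the JUN subunit with steady expression in resting cells, lies on chromosome 8 (70698949 to 70700616, plus strand). It had 205 and 195 normalized counts in WT PBS, 186 and 263 in WT HDM, 216 and 223 in cKO PBS, and 173 and 175 in cKO HDM. It was the most even of the 10 genes, with the highest library 1.52 times the lowest. HDM against PBS, Jund stood at 0.15 ± 0.26 log2 units in WT and at -0.33 ± 0.26 in cKO. The kit marks strand, but its use in counting is not given in the sources used here, so reads of Jun, Junb, Jund, Zfp36 and Atf3 cannot be told apart from those of the genes annotated on their opposite strands.

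Atf3, a stress-induced factor of the ATF family that can pair with JUN proteins, lies on chromosome 1 (191170296 to 191218039, minus strand). It had 47.5 and 41.8 normalized counts in WT PBS, 24.8 and 34.8 in WT HDM, 27.7 and 14.0 in cKO PBS, and 14.5 and 3.32 in cKO HDM. Within each treatment both cKO libraries lay below both WT libraries. The highest library was 14.3 times the lowest, the widest range of the 10 genes, on 4 to 62 reads. Averaged over treatments, cKO against WT stood at -1.51 ± 0.51 log2 units (limma unadjusted p = 0.00922, adjusted p = 0.425), with -1.89 ± 0.72 under HDM and -1.14 ± 0.72 under PBS. The HDM value went to -0.97 when the second cKO HDM library was left out and to -2.81 when the first was. Likewise, the PBS value went to -0.67 when the second cKO PBS library was left out and to -1.61 when the first was.

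Egr1, a zinc finger factor induced through serum response factor, had 313 and 240 normalized counts in WT PBS, 247 and 224 in WT HDM, 177 and 268 in cKO PBS, and 180 and 144 in cKO HDM. Under HDM both cKO libraries lay below both WT libraries, and under PBS the genotypes overlapped. The difference of cKO against WT was -0.55 ± 0.28 log2 units under HDM and -0.33 ± 0.28 under PBS (limma adjusted p = 0.564 and 0.826). HDM against PBS stood at -0.22 ± 0.28 in WT and -0.44 ± 0.28 in cKO. The PBS genotype difference was -0.033 without the first cKO PBS library, and the cKO treatment difference was -0.14 without the second.

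Klf6, a Krüppel-like factor of injured epithelium, lies on chromosome 13 (5861482 to 5870394, plus strand). It had 142 and 172 normalized counts in WT PBS, 110 and 155 in WT HDM, 143 and 212 in cKO PBS, and 166 and 125 in cKO HDM. The libraries of the 4 groups overlapped throughout. HDM against PBS stood at -0.26 ± 0.31 log2 units in WT and -0.27 ± 0.31 in cKO, and Klf6 was the 1 member whose cKO against WT difference was positive under HDM (0.14 ± 0.31).

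Ier2, an immediate early gene that encodes a nuclear protein, lies on chromosome 8 (84661331 to 84662852, minus strand). It had 198 and 132 normalized counts in WT PBS, 112 and 148 in WT HDM, 172 and 145 in cKO PBS, and 117 and 106 in cKO HDM. In cKO the HDM libraries lay below the PBS libraries, and in WT the treatments overlapped. HDM against PBS stood at -0.32 ± 0.31 log2 units in WT and -0.50 ± 0.31 in cKO. The WT value was -0.032 without the first WT PBS library and -0.62 without the second.

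Zfp36 encodes tristetraprolin, which binds AU-rich elements and speeds the decay of cytokine and immediate early mRNAs. It lies on chromosome 7 (28376784 to 28380253, minus strand). It had 189 and 160 normalized counts in WT PBS, 141 and 119 in WT HDM, 114 and 206 in cKO PBS, and 109 and 69.8 in cKO HDM. In each genotype both HDM libraries lay below both PBS libraries. HDM against PBS stood at -0.43 ± 0.34 log2 units in WT and -0.81 ± 0.34 in cKO (limma adjusted p = 0.804 and 0.573), and averaged over genotypes at -0.62 ± 0.24 (limma unadjusted p = 0.0231, adjusted p = 0.507). The cKO value was -0.38 without the second cKO PBS library and -1.23 without the first.

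The comparison of HDM with PBS asked whether the allergen moved these genes. The differences of the members were mostly below 0, and no member passed. In WT, 8 of 10 were negative against 51.5% of all genes tested, with a median of -0.29 log2 units against -0.03 for all genes. The exceptions were Junb and Jund. No member passed with limma (background 0.519% of genes), edgeR or DESeq2, and 1, Fos, had an unadjusted limma p under 0.05 (background 8.93%). Groups did not overlap for 4 members that were lower under HDM (Fos, Fosb, Atf3 and Zfp36; background 20.8%) and for 1 that was higher (Junb; background 21.2%). The limma intervals of the 8 most abundant members lay within -1.16 and 0.74, so log2 shifts beyond those bounds fall outside them. The median was -0.17 without the first WT PBS library and -0.53 without the second. In the same comparison 2 of 9 tested endothelial markers, 4 of 6 tested fibroblast and smooth muscle markers and 4 of 9 alveolar type 2 markers rose. The differences of 7 of 7 ciliated and 5 of 6 club cell markers were negative (3 and 2 with an unadjusted p under 0.05, none passing with limma), and the part of these cells in the members' levels was not tested.

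In cKO all 10 members were negative (background 44.5%), with a median of -0.60 log2 units against 0.10 for all genes. No member passed with limma (background 0.0532%), edgeR or DESeq2, and 3 had an unadjusted limma p under 0.05 (Fos, Junb and Zfp36; background 7.77%). Groups did not overlap for 6 members, all lower under HDM (Fos, Jun, Junb, Jund, Ier2 and Zfp36; background 16.7%). Here 0 of 9 endothelial, 0 of 6 fibroblast and smooth muscle and 0 of 9 alveolar type 2 markers passed with limma, with 0, 3 and 1 at an unadjusted p under 0.05. The 6 club cell markers summed to 4625 to 6376 normalized counts in cKO HDM and 8390 to 11554 in cKO PBS; none of the 6 passed with limma, 3 had an unadjusted p under 0.05, and their part in the members' values was not tested. Without the second cKO PBS library the median was -0.37, and without the second cKO HDM library it was -0.42.

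Averaged over genotypes all 10 members were negative (background 47.2%), with a median of -0.42 log2 units against 0.04. None passed with limma, edgeR or DESeq2 (limma background 0.399%), and 2 had an unadjusted limma p under 0.05 (Fos and Zfp36; background 8.45%). Over both genotypes 3 of 6 fibroblast and smooth muscle and 1 of 9 alveolar type 2 markers rose, 0 of 9 endothelial markers passed with limma (6 at an unadjusted p under 0.05), and the club cell marker Cyp2f2, a cytochrome P450, fell by 0.88 ± 0.15 (limma adjusted p = 0.0127). The part of these cells was not tested. Fos was the 1 member whose 4 HDM libraries all lay below its 4 PBS libraries (background 1.66%). The response did not pass as different between genotypes for any member with limma, edgeR or DESeq2 (limma background 0.0266%). In that test 1 member, Junb, had an unadjusted limma p under 0.05 (background 7.77%), and 8 of 10 members were negative (background 44%).

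**Figure D2:**
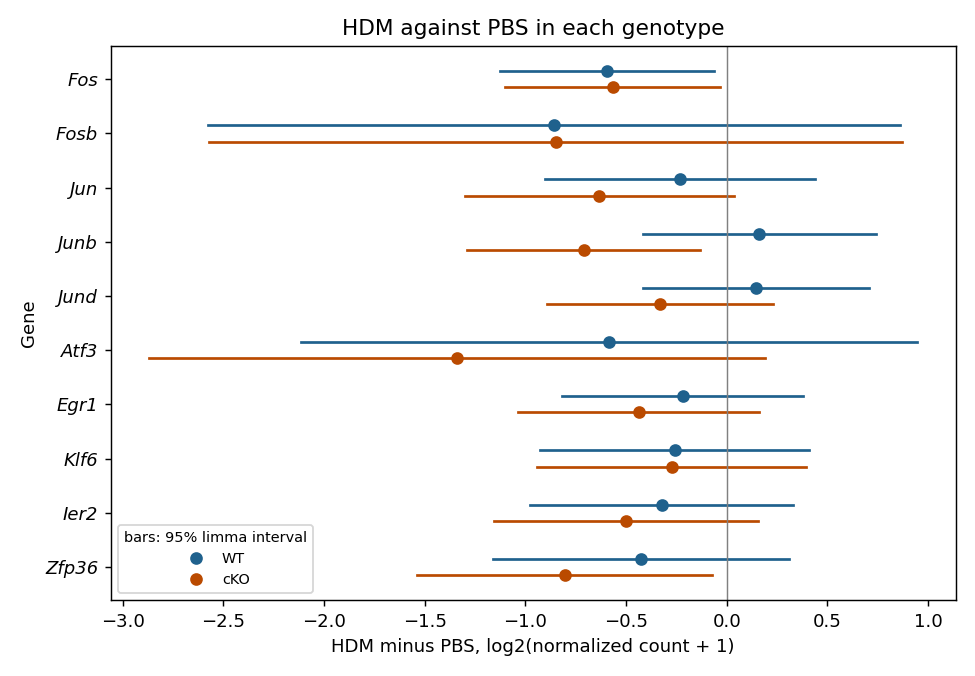
Difference of HDM minus PBS for each immediate early gene on the log2(normalized count + 1) scale, in WT and in cKO, with 95% limma intervals. All cKO points lie below 0, and in WT those of Junb and Jund lie above it; the intervals of Fos in both genotypes and of Junb and Zfp36 in cKO do not reach 0, before adjustment.

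The study's title sets the genotypes side by side after HDM. Of the 10 members, 9 were lower in cKO (background 49.2%), with a median of -0.53 log2 units against 0.02 for all genes. No member passed with limma (background 0.572%), edgeR or DESeq2, and 2 had an unadjusted limma p under 0.05 (Junb and Atf3; background 9.6%). Groups did not overlap for 7 members, all lower in cKO (Fosb, Jun, Junb, Jund, Egr1, Atf3 and Zfp36; background 21.9%). Fos was not among them, at -0.16 ± 0.25 (95% interval -0.69 to 0.37). Of 9 alveolar type 2 markers 7 fell, as did 2 of 9 endothelial and 4 of 6 fibroblast and smooth muscle markers, and 1 of 7 ciliated markers rose, and their part in the members' values was not tested. The median was -0.30 without the second cKO HDM library and -0.70 without the first.

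Under PBS, 7 of 10 members were lower in cKO (background 55.4%), with a median of -0.14 log2 units against -0.09 for all genes. None of the 7512 genes tested passed with limma (background 0%), edgeR or DESeq2, whereas 53 passed with limma without the first cKO PBS library and 315 without the second; none of these was a member. Of the members 0 had an unadjusted limma p under 0.05 (background 6.96%). Atf3 was lower without overlap (background 19.1%) and Jund higher without overlap (background 15.7%). The median was 0.03 without the first WT PBS library, 0.0064 without the first cKO PBS library, and -0.35 and -0.37 without the second of each. Averaged over treatments, 9 members were lower in cKO (background 52.6%), none passed with limma, edgeR or DESeq2 (limma background 0.12%), and 2 had an unadjusted limma p under 0.05 (Egr1 and Atf3; background 8.41%). These comparisons share libraries with those of HDM and PBS, and the cKO HDM libraries enter both the lowest HDM values and the lowest cKO values. By group mean, cKO HDM was the lowest group for 9 of 10 members and WT PBS the highest for 7. The shares of all genes tested with these lowest and highest groups were not computed.

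**Figure D3:**
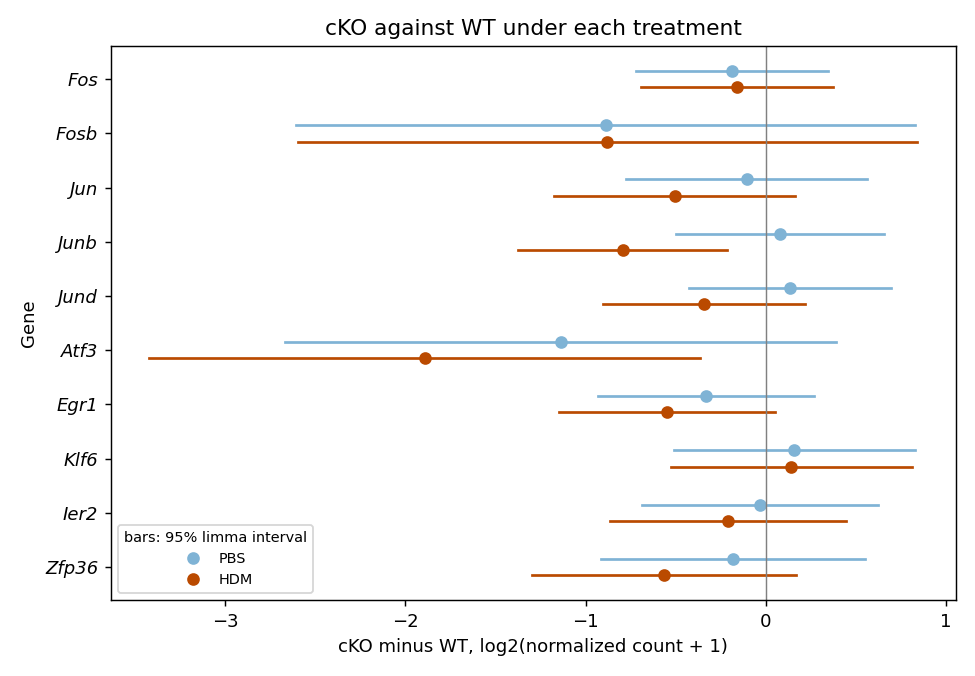
Difference of cKO minus WT for each immediate early gene on the log2(normalized count + 1) scale, under PBS and under HDM, with 95% limma intervals. Under HDM the points of 9 genes lie below 0 and that of Klf6 above it, and under PBS 7 lie below 0.

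The differences between treatments were set beside those between the 2 libraries of a group, which share genotype and treatment. Between replicates, the absolute difference of a member had a median over the 10 genes of 0.26 log2 units in WT PBS, 0.32 in WT HDM, 0.54 in cKO PBS and 0.31 in cKO HDM. Between treatments that median was 0.29 in WT and 0.60 in cKO. Between replicates 8 of 10 members were higher in the first library of cKO HDM and of WT PBS. In WT HDM and in cKO PBS 7 of 10 were higher in the second library. The members' median difference, first minus second library, was 0.31 log2 units in cKO HDM and 0.21 in WT PBS. It was -0.21 in WT HDM and -0.45 in cKO PBS. Over all genes tested these medians were 5.7e-06, -0.0021, 0.015 and -0.048. The share of all genes higher in either library was not computed. The treatment difference exceeded all 4 replicate differences for 1 member, Fos, in WT (background 13.5% of genes tested) and for 3, Fos, Jun and Junb, in cKO (background 12.1%). The genotype difference did so for 2, Junb and Atf3, under HDM (background 14.2%) and for 0 under PBS (background 10.9%). Of the members, 8 were less variable within groups than most genes tested, with 2.41 to 24.3% of genes having a lower SD. These 8 also had means above those of 95.4 to 99.0% of genes tested. Their SDs were not compared with those of genes of like abundance. Fosb and Atf3 were not, with SDs of 0.77 and 0.75 log2 units that lay above those of 65.7% and 64.1% of genes.

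**Figure D4:**
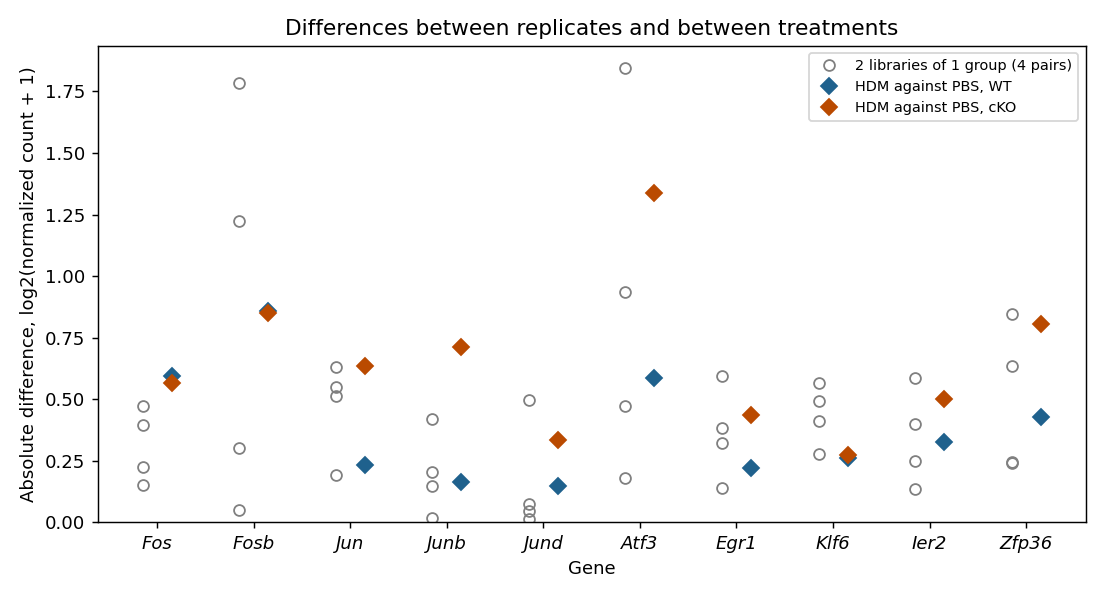
Absolute differences on the log2(normalized count + 1) scale for each immediate early gene, with open circles for the 2 libraries of a group (4 pairs) and diamonds for HDM against PBS in WT and in cKO. The diamonds of Fos in both genotypes and of Jun and Junb in cKO lie above all 4 circles, and those of Fosb, Egr1, Ier2, Zfp36, Klf6, Jund and Atf3 do not.

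A list of 48 other immediate early genes, of which 36 were tested, did not show the members' direction for HDM against PBS but had mostly negative differences for cKO against WT. HDM against PBS, 17 of the 36 were negative in WT (background 51.5%), with a median of 0.02 log2 units against -0.03 for all genes. In cKO 14 were negative (background 44.5%), with a median of 0.16 against 0.10. Gadd45g, a stress-induced regulator of growth arrest, was the 1 that passed with limma in WT. None passed in cKO with limma, edgeR or DESeq2 (2 with an unadjusted limma p under 0.05, background 7.77%). Gadd45g had 21.4 and 15.5 normalized counts in WT PBS, 90.0 and 128 in WT HDM, 16.3 and 16.5 in cKO PBS, and 37.7 and 74.8 in cKO HDM. It rose by 2.49 ± 0.51 in WT (limma adjusted p = 0.0403) and by 2.07 ± 0.36 averaged over genotypes (limma adjusted p = 0.0129). In WT the call was lost without any 1 of the WT HDM, WT PBS or cKO HDM libraries (limma adjusted p of 0.0675 to 0.656), and also with a pseudocount of 0.2 (0.088), with no filter on low values (0.156) and with no trend (0.216). The averaged call was lost without any 1 of the WT HDM, WT PBS or second cKO HDM libraries (limma adjusted p of 0.0502 to 0.183), with no filter (0.0755) and with no trend (0.107). Nr4a1, an orphan nuclear receptor induced with Fos, stood at -1.45 ± 0.54 in cKO (limma adjusted p = 0.537). Under HDM, cKO against WT, 25 of 36 were negative (background 49.2%) with a median of -0.43 against 0.02 for all genes. Under PBS it was 26 of 36 (background 55.4%) with a median of -0.36 against -0.09. Over both treatments it was 27 of 36 (background 52.6%) with a median of -0.46 against -0.04. None passed with limma or edgeR in these 3 comparisons. With limma 4, 4 and 8 had an unadjusted p under 0.05 (background 9.6%, 6.96% and 8.41%). Under HDM Errfi1, a feedback inhibitor of the EGF receptor, stood at -1.35 ± 0.34 (limma adjusted p = 0.115). Errfi1 passed there with DESeq2, as did Ccn1, a matricellular protein gene, for cKO against WT over both treatments and Bhlhe40, a circadian repressor, for HDM against PBS in WT.

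Heat shock genes, all 16 of which were tested, leaned the other way from the members under HDM. In cKO 15 of 16 were positive (background 55.5%), with a median of 0.65 log2 units against 0.10 for all genes, and in WT 11 of 16 (background 48.5%), with a median of 0.24 against -0.03. None passed with limma, edgeR or DESeq2, and 3 in cKO and 1 in WT had an unadjusted p under 0.05 with each of these tools (limma background 7.77% and 8.93%). Hsph1, a co-chaperone of the HSP70 system, had 76.5 and 110 normalized counts in WT PBS, 180.0 and 92.8 in WT HDM, 97.6 and 161 in cKO PBS, and 363 and 212 in cKO HDM. It stood at 1.14 ± 0.39 in cKO (limma adjusted p = 0.534). Hsp90aa1, the inducible HSP90, stood at 0.86 ± 0.25 in cKO and 0.43 ± 0.25 in WT (limma adjusted p = 0.42 and 0.699). The 16 genes took 0.856% and 0.648% of reads in cKO HDM and 0.475 to 0.580% in the other 6 libraries. In cKO HDM the first library was the higher of the pair for these genes and also for the summed members (0.354% against 0.293%). In WT PBS and in cKO PBS the same library was likewise the higher for both lists. In WT HDM it was not, with 0.580% and 0.505% for the heat shock genes and 0.385% and 0.408% for the members.

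**Figure D5:**
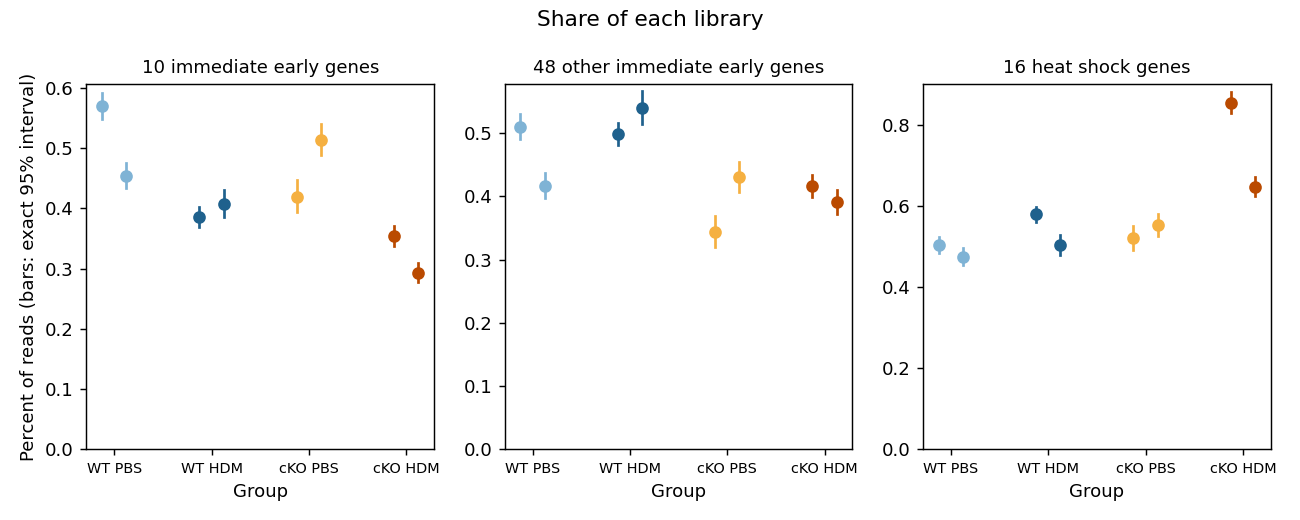
Percent of each library's reads taken by the 10 immediate early genes, by 48 other immediate early genes and by 16 heat shock genes, with exact 95% intervals for counting error and 1 point per library. The members are lowest and the heat shock genes highest in the cKO HDM libraries.

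Upstream of the members, 20 of 28 genes of the MAP kinase, serum response factor and CREB pathways were tested. None passed with limma, edgeR or DESeq2 in either genotype. For HDM against PBS 0 in WT and 2 in cKO had an unadjusted limma p under 0.05 (background 8.93% and 7.77%). With edgeR and with DESeq2 these were 0 and 1. Of the 20, 12 were negative in WT (background 51.5%) and 8 in cKO (background 44.5%). Srf, serum response factor itself, stood at 0.85 ± 0.47 log2 units for HDM against PBS in cKO (limma adjusted p = 0.68). Of other AP-1 and KLF family genes 13 of 18 were tested, and none passed with limma, edgeR or DESeq2 in any of the 7 comparisons. For HDM against PBS 1 in WT and 0 in cKO had an unadjusted p under 0.05 with each tool (limma background 8.93% and 7.77%). Atf4, a stress-response factor, stood at 1.22 ± 0.50 in WT (limma adjusted p = 0.48). Of 12 genes that are paralogs of Zfp36 or carry mRNAs known to be bound by tristetraprolin, 6 were tested. None passed with limma, edgeR or DESeq2 for HDM against PBS in WT or cKO. There 0 and 0 had an unadjusted limma p under 0.05 (background 8.93% and 7.77%), and 0 and 1 with edgeR and with DESeq2. Tnf and Il6 had 0 reads in every library.

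Across the 8 libraries most pairs of members were positively correlated. Of the 45 pairs of members, 44 had a positive Pearson correlation of log2 values, with a median of 0.54 and a range of -0.18 to 0.94. These points share libraries, groups and depth, and the values are a description. Pairs of other genes, or of genes of like abundance, were not computed as a background. With the mean of the other members, Jun correlated at r = 0.93, Zfp36 and Egr1 at 0.92 and Fos at 0.83, against 0.57 for Junb, 0.49 for Jund and 0.31 for Klf6. Without the 2 libraries farthest from the median, the second cKO HDM and the first WT PBS library, r was 0.68 for Jun, 0.76 for Zfp36, 0.77 for Egr1 and 0.74 for Fos, while that of Atf3 went from 0.72 to 0.08, that of Ier2 from 0.67 to 0.20, that of Fosb from 0.67 to 0.45 and that of Junb from 0.57 to 0.35. Outside the set, the 4 of 7502 genes most like the mean of the members were Prxl2c (r = 0.96), Nr4a1 (0.96), Pygb (0.93) and Acox3 (0.91). Without those 2 libraries these were 0.83, 0.90, 0.96 and 0.58. Nr4a1 had 72.7 and 55.5 normalized counts in WT PBS, 51.5 and 56.7 in WT HDM, 32.5 and 76.2 in cKO PBS, and 28.3 and 10.8 in cKO HDM, and its cKO HDM libraries were the lowest of the 8.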

How the data were processed

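RNA-seq of sorted lung epithelial cells from 8 libraries was analysed from 1 deposited table of 25124 gene symbols. Its values are signal values, counts normalized by the authors with 1 factor per library. HOMER, DESeq2 and mm10 are named per the submitters' processing notes; not given in the sources used here are the aligner, annotation, versions and use of strand. All values were whole multiples of 1 read (100% within 0.01 reads), so reads were recovered, 232556 to 593200 per library. A gene without reads allows up to 3, or 1.96 to 4.88 normalized counts; floors and exact Clopper-Pearson 95% intervals cover counting error only.

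Genes with a mean of at least 10 (7512 genes) were fitted across all genes as log2(value + 1) with limma 3.58.1 in R 4.3.3, with 1 mean per group over 8 libraries, an eBayes trend and Benjamini-Hochberg adjustment over all genes tested (threshold 0.05, two-sided). Errors after ± are limma standard errors for log2 differences and standard deviations for counts. The code was tested on simulated data. Alternatives were pseudocounts of 0.2 and 5, no filter or a minimum mean of 50, median-of-ratios and quantile scaling, no trend, a replicate block, each library left out, only the groups compared, and edgeR 4.0.16 and DESeq2 1.42.0 on the recovered reads. Positions and exon lengths came from GENCODE M21 (GRCm38, the assembly of mm10), and promoters from RefSeq (GRCm38.p6).

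The members, gene lists and tests were chosen with earlier results of these data known. Named were all members, Stat3, and from each list the genes that passed or were among the 4 smallest p-values in 3 comparisons, of which examples are printed, and the 5 genes most like the members across libraries, the last of which is not reported here.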

Additional observations from a re-analysis of the deposited data

Results flagged for a closer look

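Junb is singled out because its treatment differences went opposite ways in WT and cKO without overlap. Both WT HDM libraries (209 and 211 normalized counts) lay above both WT PBS libraries (197 and 178). Both cKO HDM libraries (112 and 130) lay below both cKO PBS libraries (229 and 171). Of all genes tested, 21.2% were higher without overlap in WT and 16.7% lower without overlap in cKO. The share of genes with opposite directions in WT and cKO was not computed. The difference between the responses, cKO minus WT, was -0.87 ± 0.38 log2 units (95% interval -1.69 to -0.06, limma unadjusted p = 0.0378) and did not pass over all genes (limma adjusted p = 0.623). It was -0.84 with edgeR and -0.90 with DESeq2, with adjusted p of 0.651 and 0.61.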

How the results depend on the processing

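No member passed in any comparison under any of the 19 alternatives, as far as each was run: a minimum mean of 50 left 8 of 10 members tested (not Atf3 and Fosb), and the fit on only the groups compared covered 4 of 7 comparisons. In all, 1244 of 1286 values of single members kept their direction. Many of these values could not differ from the main fit. The filters, no trend, the replicate block and the fit on only the groups compared cannot change a log2 difference. Nor can leaving out a library that a comparison does not use. Median-of-ratios scaling gave the same all-gene medians as the main fit. The count is therefore no measure of robustness. The replicate numbers did not pair the libraries (same-numbered deviations correlated at -0.0164 to 0.0182). Each group has 1 library of each number, so a replicate block cannot change a log2 difference, only its error. With the block 43 genes passed with limma for HDM against PBS in WT and 5 in cKO, against 39 and 4 without it.

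Leaving out 1 library at a time, where a lone library is assumed to vary like the other groups, the median ran from -0.53 to -0.17 for HDM against PBS in WT, -0.75 to -0.37 in cKO, -0.70 to -0.30 for cKO against WT under HDM, -0.37 to 0.033 under PBS, and -0.51 to -0.050 for the difference between responses. For HDM against PBS in WT, Jund ran from -0.10 to 0.39 and Jun from -0.51 to 0.042. In cKO, Fosb ran from -1.74 to 0.042 and Klf6 from -0.56 to 0.0075. Over both genotypes Jund ran from -0.22 to 0.031. For cKO against WT under HDM, Klf6 ran from -0.10 to 0.39. Under PBS the ranges were -0.42 to 0.047 for Fos, -0.33 to 0.26 for Ier2, -0.38 to 0.17 for Jun, -1.78 to 0.0044 for Fosb, -0.13 to 0.29 for Junb, -0.61 to 0.24 for Zfp36 and -0.12 to 0.44 for Klf6. Over both treatments they were -0.23 to 0.023 for Jund and -0.27 to 0.025 for Ier2. For the difference between responses they were -0.21 to 0.26 for Fos, -0.88 to 0.90 for Fosb, -0.47 to 0.12 for Ier2, -0.30 to 0.27 for Klf6, -1.68 to 0.17 for Atf3, -0.51 to 0.079 for Egr1 and -0.80 to 0.044 for Zfp36.

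Quantile normalization turned Junb for cKO against WT under PBS to -0.0018. For the difference between responses it gave -0.37 for Fosb and 0.050 for Klf6, edgeR gave -0.44 and 0.0078, and DESeq2 gave -0.48 for Fosb; the cause was not tested. Over all genes the count that passed for HDM against PBS in WT was 39 with limma, 59 with edgeR and 134 with DESeq2, in cKO 4, 4 and 28, and for cKO against WT under HDM 43, 54 and 126. Leaving out 1 library, the limma counts ran from 3 (without the second WT HDM or the first WT PBS library) to 110 (without the second cKO PBS library), from 0 (without either WT HDM or the first cKO HDM library) to 320 (without the second cKO PBS library), and from 3 (without the second WT HDM library) to 117 (without the second cKO PBS library). With 2 libraries a group and 4 to 62 reads for Atf3 and 5 to 39 for Fosb, depth limits these 2 genes most.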
